A study of Homo sapiens with 9 samples.

Results

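The genes of the Hippo pathway, from its upstream kinases and adaptors through the core kinase cassette to YAP and the TEAD factors, were examined for YY1 at their promoters. YY1 is a zinc-finger transcription factor that can repress or activate the promoters it binds. The regions described are the YY1 peaks that the deposited table assigns to 1 of 34 Hippo genes chosen by name and places within 2000 bp of a transcription start site (TSS). Of 23002 peaks in the table, 15384 were promoter peaks by this distance, and 33 of these belonged to 28 of the 34 genes. YY1 was recovered by chromatin immunoprecipitation from SK-N-MC cells, a human line labelled as neuroblastoma, and the DNA was sequenced. Cells of the HttQ89 group (3 libraries) overexpressed amino acids 1 to 550 of Htt (huntingtin), in which a long glutamine tract causes Huntington's disease, with an expanded tract of 89 glutamines. Cells of the HttQ23 group (3 libraries) overexpressed the same fragment with an unexpanded tract of 23 glutamines. All of them carry the genotype label WT, and all were transfected with plasmid DNA by Lipofectamine. The labels call the libraries biological replicates. The comparison of the groups asks whether YY1 sits differently on its DNA targets when the tract is expanded. The plasmid's promoter, the time after transfection and any sorting of transfected cells are not given in the sources used here. YY1 signal cannot check the cell type against marker genes, and the input libraries were not analysed here.

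In the Hippo pathway, the kinases STK3 and STK4, held by the scaffold SAV1, phosphorylate the kinases LATS1 and LATS2, which act with their cofactors MOB1A and MOB1B. LATS kinases phosphorylate the coactivators YAP1 and WWTR1 and so keep them out of the nucleus. Unphosphorylated YAP1 and WWTR1 enter the nucleus and drive growth and survival genes through the DNA-binding factors TEAD1 to TEAD4, while VGLL4 competes with YAP1 for the TEADs. Kinases of the MAP4K and TAOK families, and membrane or junction proteins such as NF2, feed into the cassette from upstream.

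YY1 peaks were found at most of these promoters, mainly over the start site itself. STK4 and WWTR1 had no peak in the table. TAOK1, MAP4K3, WWC2 and DCHS1 had peaks only farther than 2000 bp from a TSS. Of the 33 promoter peaks, 30 lay within 1000 bp and 21 covered an annotated TSS of their gene (GENCODE v44), and 16 covered the start of the gene's MANE Select transcript, its agreed standard isoform. Relative to that transcript, the peak centre was upstream of its start at 15 peaks. It was in untranslated exon sequence at 9, in an intron at 8 and in coding exon sequence at 1. Of the 15, the main VGLL4 peak lay at −75618 bp, the weaker STK3 peak at −115607 bp and the weaker TJP1 peak at −146054 bp. Each of these lay over or downstream of an alternative start of the same gene. Signal is the number of reads within a 401-bp peak, scaled by the authors to sequencing depth, and is given here as the deposited normalised read count. Averaged over the 6 libraries it had a median of 82.5 over the 33 peaks, against 81.2 over all 11802 tested promoter peaks, and the GC content had a median of 72.3% in each of these sets. The 17 peaks of the same genes beyond 2000 bp were weaker, with a median of 7.63 and a maximum of 39.2. At the edge of the distance rule, a YAP1 peak at −1959 bp lay just inside, with a mean of 11.6. A TAOK3 peak at −2342 bp (mean 8.84) and an AMOTL2 peak at 2410 bp (mean 39.2) lay just outside. These distances are to alternative starts inside the genes. From the start of the standard transcript, the centres lay 73475 bp downstream at YAP1, 126875 bp at TAOK3 and 10216 bp at AMOTL2.

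To show what lies under these peaks, the hg38 sequence (GRCh38) was searched on both strands for the YY1 core ATGGCG and for the longer YY1 match AANATGGC, which overlaps it. ATGGCG was present under 6 of the 33 Hippo peaks (18.2%), or 4 of the 29 tested ones (13.8%), against 29.4% of the tested promoter peaks. AANATGGC was present under 1 of the 33 (3.03%), or 1 of the 29 tested (3.45%), against 13.1% of the tested promoter peaks. That peak was the one at LATS1. Among the peaks with ATGGCG were those of LATS1, STK3, NF2, LIMD1 and MAP4K2. Sites are given for 4 of them on the strand that reads ATGGCG, in windows of 30 bases with the core in capitals.
LATS1, chr6:149718045-149718074, minus strand: gtggaaggcaaaATGGCGgcggcggcggcg
NF2, chr22:29603983-29604012, minus strand: atggccccggccATGGCGcggggctcaggc
LIMD1, chr3:45594192-45594221, minus strand: gcccattgtccgATGGCGgcggcggatcgg
MAP4K2, chr11:64803053-64803082, minus strand: gggccgggacctATGGCGacgtctacaagg
The LATS1 core lay 42 bp downstream of the LATS1 start, on the strand of the gene and in its first, untranslated exon, and the bases before it complete the longer match. The NF2 core lay 364 bp downstream of the start the table assigns. The LIMD1 and MAP4K2 cores lay upstream of the assigned start, by 118 and 58 bp. For MAP4K2 the assigned start is an alternative one, and the core lies inside the standard transcript. The centre of the MAP4K2 peak is 300 bp downstream of that transcript's start, in coding exon sequence. Among the tested promoter peaks as a whole, mean signal had a median of 172.9 with AANATGGC and 75.8 without it. A match is a description of the letters and was not tested as a site of binding.

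The TEAD factors bind the core GGAATG, so this too was counted under the peaks. It was present under 7 of the 33 Hippo peaks (21.2%), all 7 among the 29 tested ones (24.1%), against 9.81% of the tested promoter peaks. No test was made of the difference. The peaks with GGAATG were 4 of the 8 peaks of the transcription factor group (YAP1, TEAD1, TEAD3 and VGLL4) and 3 of the other 25 (AMOTL2, PTPN14 and MAP4K1). In the TEAD1 and TEAD3 promoters, pairs of copies stood close together on the strand opposite to the gene. They are shown with GGAATG in capitals and were chosen after the sites were seen.
TEAD1, chr11:12674402-12674431, minus strand: atgttcGGAATGaggacaGGAATGaaatga
TEAD3, chr6:35496993-35497022, plus strand: gctggccGGAATGtgcGGAATGagccgggc
The copies at TEAD1 start 12 bp apart, the copy nearer to the gene covers the TEAD1 start site, and the other is centred 10 bp upstream of it. The copies at TEAD3 start 9 bp apart and are centred 76 and 68 bp downstream of its start.

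Between the groups, YY1 signal at the Hippo promoters was mostly lower with HttQ89 than with HttQ23, as it was at most other promoters, and at no peak did the difference pass the test. A peak was tested where it was above 0 in all 6 libraries, as the study required. This kept 29 of the 33 Hippo peaks, from 25 genes, and left out the peaks of TEAD2, LIMD1 and MAP4K2 and a weak VGLL4 peak. The fold change was below 0 (lower with HttQ89) at 28 of the 29 peaks, where 85.5% of all tested promoter peaks were below 0. The median log2 fold change was −0.69 over the Hippo peaks, against −0.51 over the tested promoter peaks, of which the middle 50% lay between −0.79 and −0.23. By limma, with p-values adjusted by Benjamini-Hochberg over the 14698 tested peaks, 0 of the 29 passed an adjusted p of 0.05, as did 0.0% of the promoter peaks, and the lowest adjusted p of a Hippo peak was 0.818. At an unadjusted p under 0.05, 0 of the 29 were lower with HttQ89, against 4.02% of the promoter peaks. Tests on the reads by edgeR and by DESeq2 also called 0 of the 29, with 0 at an unadjusted p under 0.05 in each. The 3 HttQ89 libraries lay below all 3 HttQ23 libraries at 1 Hippo peak, the main STK3 peak, where 3.76% of the promoter peaks did so. They lay above at 0 Hippo peaks, against 0.339% of the promoter peaks.

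**Figure D1:**
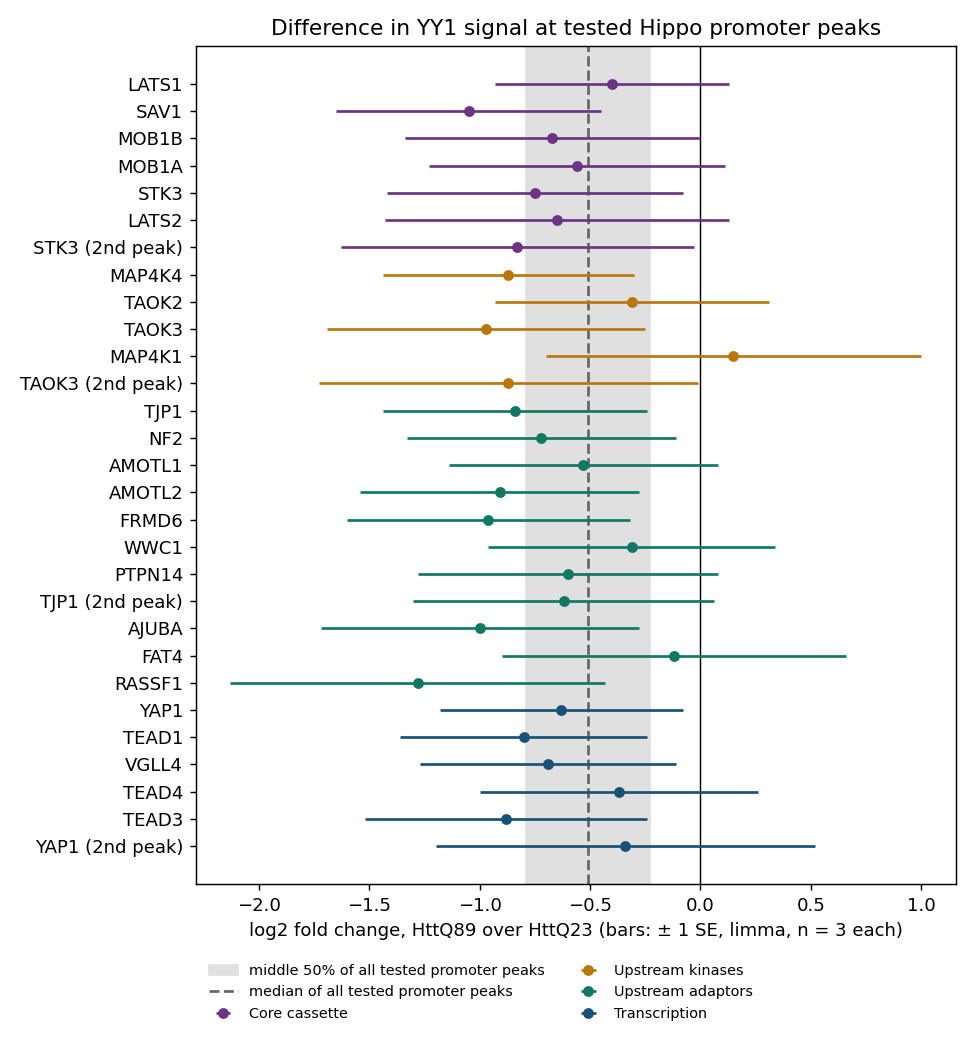
Log2 fold change in YY1 signal, HttQ89 over HttQ23, at the 29 tested Hippo promoter peaks, with ± 1 SE from limma (3 libraries per group), coloured by role and ordered within each role by signal. The dashed line is the median (−0.51) and the grey band the middle 50% (−0.79 to −0.23) of all 11802 tested promoter peaks; 28 of the 29 points lie left of 0, and MAP4K1 lies right of it at 0.15.

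The HttQ89 libraries did not move together. Relative to the HttQ23 mean of each peak, the 29 Hippo peaks had a median ratio of 0.395, 0.457 and 1.1 in HttQ89 replicates 1, 2 and 3, against 1.22, 0.841 and 0.973 in HttQ23 replicates 1, 2 and 3. All tested promoter peaks gave medians of 0.499, 0.562 and 1.17 in HttQ89 and 1.16, 0.848 and 0.961 in HttQ23. HttQ89 replicates 1 and 2 were thus low and replicate 3 was at the HttQ23 level, at the Hippo promoters as elsewhere. Replicate 3 was the highest HttQ89 library at 28 of the 29 peaks. In HttQ89 replicates 1, 2 and 3, the number of the 29 peaks below the lowest HttQ23 library was 23, 23 and 1, where 67.8%, 68.0% and 5.9% of the promoter peaks did so. Above the highest HttQ23 library lay 10 of the 29 peaks in HttQ89 replicate 3, against 34.0% of the promoter peaks.

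**Figure D2:**
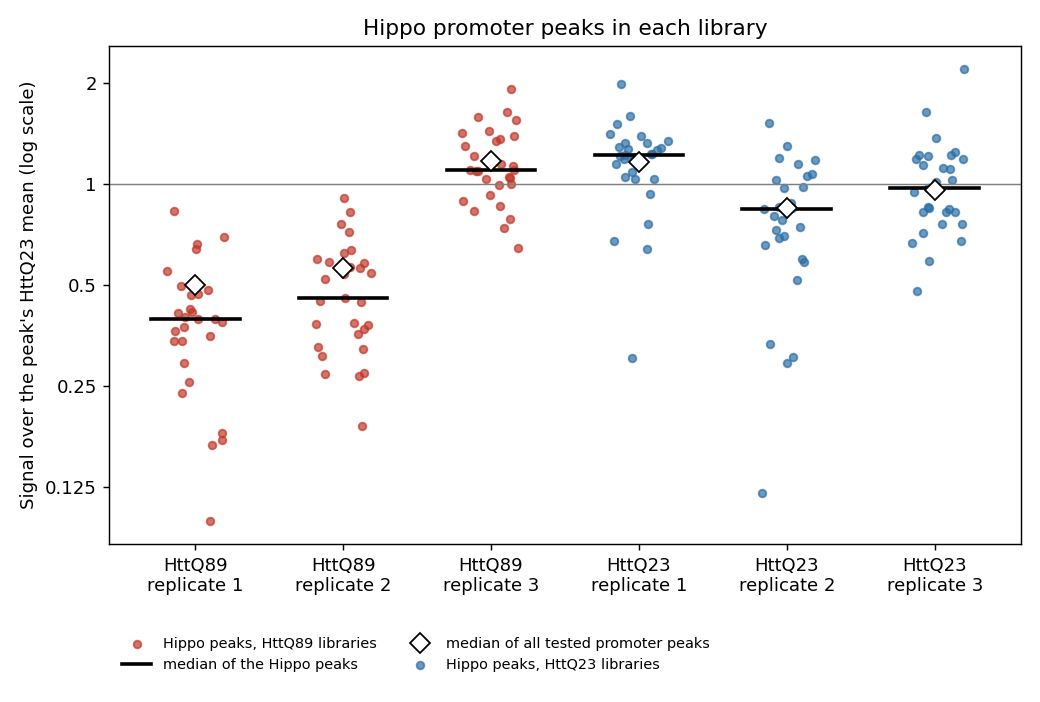
Signal of each of the 29 tested Hippo promoter peaks divided by that peak's HttQ23 mean, by library, on a log scale; each point is a peak, the bar is the median of the Hippo peaks and the diamond the median of all tested promoter peaks. HttQ89 replicates 1 and 2 have medians of 0.395 and 0.457, and HttQ89 replicate 3, at 1.1, lies among the HttQ23 libraries.

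The same 2 libraries held the fewest reads in peaks, with 927910, 1012558 and 2344649 reads in HttQ89 replicates 1 to 3, against 1943927, 1415890 and 2089917 in HttQ23 replicates 1 to 3. The relative sequencing depth read from the scaling was 0.953, 0.993 and 1.08 in HttQ89 and 0.925, 0.924 and 1.12 in HttQ23, so the libraries differed less in depth than in reads within peaks. The part of recovery in this difference was not tested. Transfected and untransfected cells were not told apart, so YY1 lost from some cells and less YY1 in all cells cannot be told apart. Without HttQ89 replicate 3, the median log2 fold change of the Hippo peaks was −1.25, with −0.88 for the promoter peaks. Then 20 of the 29 Hippo peaks had all HttQ89 below all HttQ23 libraries, against 53.0% of promoter peaks. In that fit 1 Hippo peak, at SAV1, passed the adjusted threshold, against 4.08% of promoter peaks that passed it as lower. Scaling that sets the peaks level between libraries moved the promoter median from −0.51 to between −0.02 and 0.03. Then 21 to 23 of the 29 Hippo peaks were below 0, against between 46.7% and 52.0% of the promoter peaks. The Hippo median was then between −0.20 and −0.15.

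The core cassette held the strongest Hippo peak, at LATS1, and the 1 whose groups did not overlap as deposited, at STK3. Of its 7 genes, 6 had a promoter peak, and all 7 peaks were tested and had fold changes below 0, with a median of −0.67. LATS1, the kinase that phosphorylates YAP1, carried the strongest Hippo peak (chromosome 6, 149717801 to 149718201), in percentile 98.3 of the tested promoter peaks. Its signal was 382, 325 and 677 in the HttQ89 libraries, against 768, 412 and 616 in the HttQ23 libraries. HttQ89 replicate 3 lay between HttQ23 libraries, so the groups overlapped. The log2 fold change was −0.40 ± 0.53 (SE, limma, n = 3 each, adjusted p = 0.825), and its sign turned, to between 0.04 and 0.13, under scaling on the peaks.

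STK3, the kinase upstream of LATS, had a pair of promoter peaks. At the main one (chromosome 8, 98825259 to 98825659, in an intron, 229 bp from the start of the standard transcript, and over the start of another), signal was 44.3, 53.4 and 69.7 in HttQ89 and 112.4, 99.8 and 71.8 in HttQ23. Every HttQ89 library was below every HttQ23 library here, although the highest HttQ89 value and the lowest HttQ23 value were close. The groups overlapped at this peak under median centring, quantile normalisation and TMM scaling. The log2 fold change was −0.75 ± 0.67 (SE), and the adjusted p was 0.818 by limma. An exact permutation test (two-sided) gave p = 0.1, which is as low as 3 libraries against 3 can go. Every peak whose groups do not overlap gives this p, so it adds nothing to the separation itself. The weaker STK3 peak, 1076 bp downstream of an alternative start farther upstream, had 17.5, 16.8 and 44.4 in HttQ89 and 62.6, 32.9 and 37.7 in HttQ23. There the groups overlapped through HttQ89 replicate 3.

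SAV1, the scaffold that holds STK3 and STK4, showed the largest relative spread of HttQ89 libraries in the cassette, with an SD of 97.4% of the mean. Its peak (chromosome 14, 50668175 to 50668575) had a signal of 50.5, 46.5 and 235 in HttQ89, against 209, 147 and 164 in HttQ23. HttQ89 replicates 1 and 2 were below all HttQ23 libraries and replicate 3 was above all of them. The log2 fold change was −1.05 ± 0.60 (SE, limma, adjusted p = 0.818), with the lowest unadjusted p of the tested Hippo peaks, 0.0795. Without HttQ89 replicate 3 it was −1.80 ± 0.46 (SE), with an adjusted p of 0.0438 by limma. The start of a long non-coding RNA also lay under this peak, and the signal cannot be assigned to either gene alone.

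The cofactors of LATS both had overlapping groups. MOB1B had 16.5, 75.1 and 129 in HttQ89 and 84.9, 63.7 and 125.2 in HttQ23. MOB1A had 30.9, 40.5 and 143 in HttQ89 and 115, 46.7 and 110.3 in HttQ23. At each, HttQ89 replicate 1 was lowest and replicate 3 highest of all 6 libraries, and the log2 fold changes were −0.67 ± 0.67 for MOB1B and −0.56 ± 0.67 for MOB1A (SE, limma). LATS2, the paralogue of LATS1, had a peak 90 bp downstream of its start that was far weaker than that of LATS1, with 8.24, 43.5 and 68.8 in HttQ89 and 52.0, 37.2 and 54.3 in HttQ23. Its log2 fold change was −0.65 ± 0.78 (SE). HttQ89 replicate 1 was the low library, and without it the fold change was 0.21 at LATS2 and 0.17 at MOB1B; at LATS2 it was also above 0, at 0.08, by DESeq2.

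**Figure D3:**
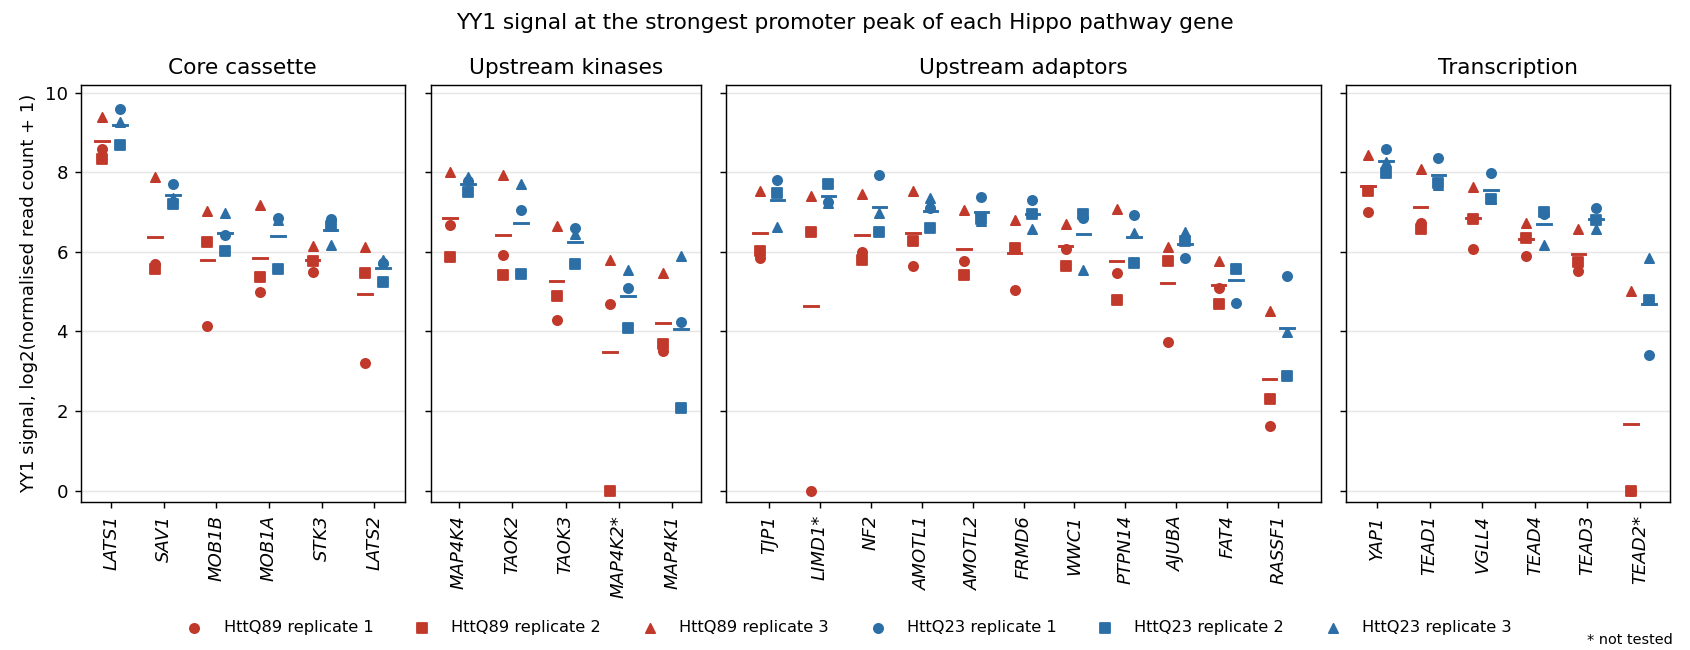
YY1 signal at the strongest promoter peak of each of the 28 Hippo genes, as log2(normalised read count + 1), by role; red symbols are HttQ89 and blue HttQ23 libraries, shapes are replicates, bars are the means of the 3 log2 values, and asterisks mark peaks not tested because a library was at 0. HttQ89 replicate 3 (red triangle) sits with the HttQ23 libraries at most genes, and at STK3 all HttQ89 values are below the HttQ23 values.

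Among the upstream kinases, 5 of 7 genes had a promoter peak and 5 of 6 peaks were tested, with a median log2 fold change of −0.87. MAP4K4, which can phosphorylate LATS kinases in place of STK3 and STK4, had the strongest of these peaks, 148 bp upstream of its start. Its signal was 102, 57.3 and 255 in the HttQ89 libraries, against 221, 179 and 234 in the HttQ23 libraries. HttQ89 replicates 1 and 2 were below all HttQ23 libraries and replicate 3 was above them, and the log2 fold change was −0.87 ± 0.57 (SE, limma, adjusted p = 0.818). TAOK2, a kinase that can phosphorylate STK3 and STK4, had 59.7, 41.5 and 243 in HttQ89 and 132, 42.5 and 208 in HttQ23. A library of each group was near 42, so the groups overlapped across their whole range, and the log2 fold change of −0.31 ± 0.62 (SE) turned to between 0.09 and 0.23 under scaling on the peaks. Its relative TAOK3 had a main peak over its start, at −0.97 ± 0.72, and a weaker one 1004 bp downstream, at −0.87 ± 0.86 (log2 fold change, SE). MAP4K1 alone had a log2 fold change above 0, at 0.15 ± 0.85 (SE), with 10.3, 11.9 and 43.4 in HttQ89 and 18.03, 3.19 and 58.7 in HttQ23. The peak covers an alternative MAP4K1 start, and its centre lay at −916 bp from the standard one. A start of EIF3K, a protein-coding gene, lay within 1000 bp of the peak. On the linear scale the mean signal of the MAP4K1 peak was lower with HttQ89, at 21.9 against 26.6 with HttQ23. The sign on the log scale rested on the low HttQ23 replicate 2, without which the value was −0.86, and it also turned, to −0.29 by edgeR and −0.02 by DESeq2, and to −0.48 without HttQ89 replicate 3. MAP4K2 was not tested, since HttQ89 replicate 2 was at 0.

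Among the upstream adaptors, 11 of 13 genes had a promoter peak, and 11 of 12 peaks were tested. All 11 had fold changes below 0, between −1.28 at RASSF1 and −0.12 at FAT4, with a median of −0.72. TJP1, a tight junction scaffold, had the strongest of them, with 56.6, 64.2 and 184 in HttQ89 and 224, 178 and 98.1 in HttQ23. HttQ89 replicate 3 lay above the lowest HttQ23 library, so the groups overlapped, and the log2 fold change was −0.84 ± 0.60 (SE). A further TJP1 peak, 193 bp downstream of an alternative start farther upstream, gave −0.62 ± 0.68. NF2, the membrane protein merlin that recruits LATS kinases, had 62.8, 54.4 and 175 in HttQ89 and 243, 89.2 and 126 in HttQ23. Here too HttQ89 replicates 1 and 2 were below all HttQ23 libraries and replicate 3 between them, and the log2 fold change was −0.72 ± 0.61 (SE).

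LIMD1, a LIM protein that binds LATS kinases, had 0, 88.9 and 169 in HttQ89 and 153, 209 and 148 in HttQ23. It was left out of the test because HttQ89 replicate 1 was at 0, while HttQ89 replicate 3 lay within the HttQ23 range. AMOTL1, an angiomotin that binds YAP1, had 49.4, 77.1 and 183 in HttQ89 and 136, 95.6 and 164 in HttQ23. HttQ89 replicate 3 was the highest of all 6 libraries there, and the log2 fold change of −0.53 ± 0.61 (SE) reached 0.01 and 0.02 under median centring and quantile normalisation. Its relative AMOTL2 gave −0.91 ± 0.63, FRMD6 −0.96 ± 0.64 and AJUBA −1.0 ± 0.72, each with an adjusted p of 0.818 by limma. RASSF1, a partner of STK3 and STK4, had a log2 fold change of −1.28 ± 0.85 (SE) at a weak peak, with 2.06, 3.95 and 21.7 in HttQ89 and 41.4, 6.37 and 14.9 in HttQ23. It was −0.88 with a pseudocount of 5 and −0.63 without HttQ23 replicate 1. At the other end, WWC1 at −0.31 ± 0.65 and FAT4 at −0.12 ± 0.78 turned above 0 under scaling on the peaks, to between 0.08 and 0.22 at WWC1 and between 0.30 and 0.42 at FAT4.

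In the transcription factor group, 6 of 7 genes had a promoter peak, and 6 of 8 peaks were tested, all with fold changes below 0 and a median of −0.66. YAP1, the coactivator that LATS kinases hold back, had the strongest (chromosome 11, 102110146 to 102110546), with 127, 184 and 347 in HttQ89 and 386, 254 and 307 in HttQ23. HttQ89 replicates 1 and 2 were below all HttQ23 libraries and replicate 3 was between them, and the log2 fold change was −0.63 ± 0.55 (SE, limma, adjusted p = 0.818). The start of a long non-coding RNA lay under this peak too. The weak YAP1 peak lay in an intron, at −1959 bp from an alternative start. It had 9.27, 8.89 and 9.05 in HttQ89 and 4.24, 21.2 and 16.6 in HttQ23, with the HttQ89 libraries inside the HttQ23 range.

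TEAD1, whose peak covers the paired GGAATG copies shown above, had a signal of 105, 94.9 and 271 in HttQ89, against 329, 212 and 204 in HttQ23. HttQ89 replicate 3 was above 2 of the HttQ23 libraries, and the log2 fold change was −0.80 ± 0.56 (SE, limma, adjusted p = 0.818). TEAD3 had 45.3, 52.4 and 95.0 in HttQ89 and 138, 112 and 94.6 in HttQ23. Its groups came nearest to separating after STK3, since HttQ89 replicate 3 was only just above the lowest HttQ23 library, and the log2 fold change was −0.88 ± 0.64 (SE). TEAD4 had 58.7, 81.0 and 106 in HttQ89 and 122, 127 and 70.9 in HttQ23. HttQ89 replicates 2 and 3 lay within the HttQ23 range, and the log2 fold change of −0.37 ± 0.63 (SE) turned to between 0.09 and 0.17 under scaling on the peaks. TEAD2 was not tested, with 0, 0 and 31.7 in HttQ89 and 9.55, 26.6 and 56.9 in HttQ23. A start of DKKL1, a protein-coding gene, lay within 1000 bp of the TEAD2 peak. VGLL4, the competitor of YAP1, had 66.9, 114 and 199 in HttQ89 and 251, 160.4 and 160.2 in HttQ23 at its main peak. That peak covers an alternative start, and its centre lay at −75618 bp from the standard start. HttQ89 replicate 3 lay between HttQ23 libraries, and the log2 fold change was −0.69 ± 0.58 (SE). At a weak VGLL4 peak, 736 bp downstream of the standard start and not tested, the values were 21.6, 0 and 21.7 in HttQ89 and 7.42, 0 and 5.25 in HttQ23.

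Other genes linked to the pathway gave a similar picture. Of 69 further Hippo-linked genes, 58 had a promoter peak and 49 were tested at their strongest one. Fold changes were below 0 at 44 and above 0 at 5, with a median of −0.50. By limma 0 passed the adjusted threshold and 2 had an unadjusted p under 0.05, where 4.02% of the promoter peaks did so in the same direction. At 2 of the 49 all HttQ89 libraries were below all HttQ23 libraries, near the 3.76% of promoter peaks, and at neither did this hold under median centring, quantile normalisation or TMM scaling. DLG5, a polarity scaffold, had 141, 185 and 183 in HttQ89 and 284, 253 and 187 in HttQ23. PRKCI, an atypical protein kinase C of the same polarity network, had 21.6, 31.6 and 42.5 in HttQ89 and 73.2, 53.1 and 49.0 in HttQ23. Of 22 known target genes of YAP and TEAD, 17 were tested, and all 17 had fold changes below 0, against 85.5% of promoter peaks, with a median of −0.65. None of the 17 passed the adjusted threshold by limma, 2 had an unadjusted p under 0.05 (4.02% of promoter peaks) and 0 had groups without overlap (3.76%). AMOTL2, LATS2 and PTPN14 are counted there as targets and above as pathway members. FJX1 and NUAK2 stand among both the targets and the further Hippo-linked genes, and FJX1 is among the 2 genes with a low unadjusted p in each list.

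**Figure D4:**
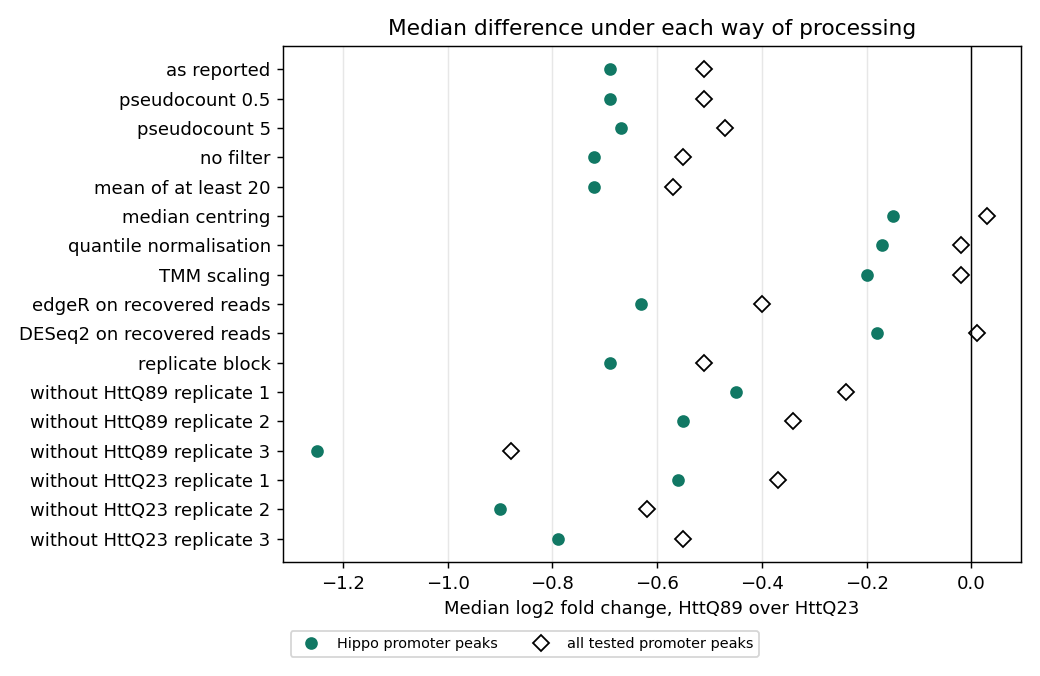
Median log2 fold change, HttQ89 over HttQ23, of the Hippo promoter peaks (filled) and of all tested promoter peaks (open) under each way of processing. The Hippo median is below 0 in each, from −1.25 without HttQ89 replicate 3 to −0.15 with median centring, and the promoter median moves with it.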

How the data were processed

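Paired 150 nt reads were trimmed (Cutadapt 3.7) and aligned to GRCh38.p14 (Bowtie2 2.4.1) by the authors, who kept unique alignments, removed blacklisted regions with bedtools 2.29.2, and called peaks against input with MACS3 3.0.1, per the labels and the study's methods. Pooling of libraries before peak calling is not described in the sources used here. The deposited table holds a normalised signal, made by the authors with DiffBind from reads per peak and sequencing depth, so a difference in recovery between libraries stays in them. Of these values, 100% were whole multiples of 1 step per library within 0.1 reads, and the reads were recovered from the steps.

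Signal above 0 in all 6 libraries was required (14698 peaks), log2(value + 1) was fitted with limma 3.58.1 (two-sided, trend, R 4.3.3), and p-values were adjusted over all tested peaks. Standard errors follow the trend with peak strength, not the spread of the single peak, and log2 differences understate changes at weak peaks. Exact permutation tests compared 3 with 3 libraries. On the recovered reads, edgeR 4.0.16 and DESeq2 1.42.0 called 0 Hippo peaks.

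Libraries were named by group and replicate from the labels. Genes were named by a rule: per-library values for each gene's strongest promoter peak in the core cassette and transcription groups, for the 6 strongest upstream peaks and for any gene whose groups did not overlap. Sequence windows were taken from the strongest promoter peak of a gene, and 1 further window is not reported here. MAP4K1, RASSF1, the weaker peaks and the other named fold changes were chosen after their values were seen. The Hippo members and all lists were chosen with earlier results of these data known. Alternatives were other pseudocounts, filters, scalings and tests, leaving out each library, and a replicate block.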

Additional observations from a re-analysis of the deposited data

How the results depend on the processing

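The median of −0.69 stayed below 0 under every alternative tried, but its size depended on scaling. It was −0.15 with median centring, −0.17 with quantile normalisation, −0.20 with TMM scaling and −0.18 by DESeq2, and between −1.25 (without HttQ89 replicate 3) and −0.45 (without HttQ89 replicate 1) when a library was left out. The Hippo median minus the promoter median was −0.19 as reported, −0.19, −0.16 and −0.18 under the first 3 of these scalings, −0.37 without HttQ89 replicate 3 and −0.27 and −0.24 without HttQ23 replicates 2 and 3. The median shift of the Hippo peaks varied between HttQ23 libraries with an SD of 0.273 on the log2 scale. That spread holds the shift shared with all promoters, which the −0.19 leaves out, so it gives no measure of the −0.19. Relative to the HttQ23 mean of each peak, HttQ23 replicates 1, 2 and 3 had medians of 1.22, 0.841 and 0.973 at Hippo peaks. The promoter peaks gave 1.16, 0.848 and 0.961. The spread of the −0.19 between libraries was not tested. The number of Hippo peaks without overlap was 0 with median centring (3.39% of promoter peaks) and 2, neither at STK3, with quantile normalisation (3.54%). It was between 1 and 20 when a library was left out, with 3, 2 and 6 without HttQ23 replicates 1, 2 and 3, where 4.89%, 9.67% and 14.1% of promoter peaks had no overlap, and 20 without HttQ89 replicate 3 (53.0%). With TMM scaling the 1 such peak was at TEAD3, not STK3. The number called was between 0 and 1 when a library was left out, the 1 being SAV1 without HttQ89 replicate 3 (−1.80), and 0 under the other alternatives.

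Of 399 single-gene comparisons over 25 genes, 34 changed sign and 16 genes never did. With median centring the values that turned were 0.13 at LATS1, 0.16 at TEAD4, 0.01 at AMOTL1, 0.22 at WWC1, 0.42 at FAT4 and 0.23 at TAOK2. With quantile normalisation they were 0.04, 0.17, 0.02, 0.22, 0.33 and 0.21 at the same genes. With TMM scaling they were 0.09 at LATS1, 0.12 at TEAD4, 0.18 at WWC1, 0.36 at FAT4 and 0.18 at TAOK2. By edgeR it was −0.29 at MAP4K1, and by DESeq2 0.10 at LATS1, 0.08 at LATS2, 0.09 at TEAD4, 0.08 at WWC1, 0.30 at FAT4, 0.09 at TAOK2 and −0.02 at MAP4K1. Leaving out a library gave ranges of −1.28 to 0.17 at MOB1B, −1.25 to 0.21 at LATS2, −0.41 to 0.13 at FAT4, −1.07 to 0.19 at TAOK2 and −0.86 to 1.06 at MAP4K1. The cause was not tested.

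With the replicate block the median was −0.69 and 0 Hippo peaks were called (lowest adjusted p 0.796, limma). Same-numbered libraries correlated at 0.0414, 0.386 and 0.146, so the numbers were not taken as pairs, and HttQ89 replicate 1 correlated best with HttQ23 replicate 3 (0.129). HttQ89 replicate 1 had 22.5% of all peaks at 0, against 2.99% in HttQ89 replicate 3, and the filter leaves out peaks at 0 in any library. The cause of these zeros was not tested.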
